A study of Mus musculus with 48 samples.

Results

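H19, the IGF ligands Igf1 and Igf2, the receptors Igf1r and Igf2r, and the binding proteins Igfbp2, Igfbp3, Igfbp4, Igfbp5 and Igfbp7 were followed through the first week after permanent stroke in the mouse brain. These 10 of the 46983 genes in the count tables were picked by name, with earlier results of these data in view, so their fold changes and calls describe them and carry no independent test of the list. All 10 passed the filter on low counts, which kept 19970 genes. 48 QuantSeq libraries, which count reads at the 3′ end of polyadenylated transcripts, covered 11 groups of male C57Black/6 mice aged 3 months. The 24 MCAO libraries came from mice whose middle cerebral artery was coagulated and cut through after a hole was drilled and the dura removed, and were collected at 3 h (n = 5), 12 h (n = 5), 24 h (n = 4), day 3 (n = 5) and day 7 (n = 5). Each time had 4 sham libraries, from mice that underwent the surgery without coagulation, and 4 control libraries came from intact cortex. The infarct of this model is small and the sample held both affected and unaffected tissue, so each value is an average over both. How much tissue was taken is given differently by the sources. The sample labels and the study's bulk methods name the injured region of the cortex. The series description and the study's results speak of most or all of a forebrain hemisphere. The labels letter the libraries A to E within a group, and nothing in them ties a letter to a shared animal or day.

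Insulin-like growth factors are secreted peptides that signal mainly through the tyrosine kinase receptor IGF1R, whereas IGF2R takes up IGF-II for degradation without signalling of its own. Cysteine-rich binding proteins hold the ligands in the extracellular space, and IGFBP7 is a relative with low affinity for IGFs. H19 is a maternally expressed long noncoding RNA that shares an imprinted locus and enhancers with the paternally expressed Igf2, and it is the host transcript of miR-675; in the adult brain, Igf2 is known chiefly from the meninges, vessels and choroid plexus, and Igf1 from neurons and microglia.

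On GRCm38 (Gencode annotation), H19 is a lincRNA at chr7:142575529-142578143 on the minus strand, and Igf2 lies 72.6 kb away on the same strand at chr7:142650766-142666816. Igfbp2 (chr1:72824503-72852474, plus strand) and Igfbp5 (chr1:72857932-72874884, minus strand) are neighbours 5.46 kb apart. Igf1 is at chr10:87858265-87937042 (plus), Igf1r at chr7:67952827-68233668 (plus), Igf2r at chr17:12682406-12769664 (minus), Igfbp3 at chr11:7206086-7213923 (minus), Igfbp4 at chr11:99041244-99054392 (plus) and Igfbp7 at chr5:77349240-77408041 (minus). The miRNA carried by H19 is shown because the transcript counted here is its precursor; the sequences are from RefSeq on GRCm38.p6, with the seed (bases 2 to 8) in capitals in the mature forms. No other mature miRNA in the RefSeq table shared either seed. The libraries count polyadenylated transcripts, and the Mir675 gene itself (chr7:142577064-142577147, inside H19) was listed at 0 counts in every library.
miR-675 hairpin: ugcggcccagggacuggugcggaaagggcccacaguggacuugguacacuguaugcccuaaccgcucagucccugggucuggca
miR-675-5p: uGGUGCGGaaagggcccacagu
miR-675-3p: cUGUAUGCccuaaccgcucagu

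RefSeq promoter windows, from 250 bases before to 50 after a transcription start, were found for 9 of the 10 members, 13 windows in all. They were searched on both strands for the loose AP-1 pattern TGANTCA, in which N is any base, the hypoxia response core in its forms ACGTG and GCGTG, and the TATA box TATAAA. An AP-1 match lay in 2 of the 13 windows, against 7.81% of all 32851 promoter windows; ACGTG lay in 4 (19.6% of all), GCGTG in 7 (32.4%) and TATAAA in 1 (13.6%). The 2 windows with an AP-1 match belong to Igf1 and Igfbp2, which were higher on day 7 and day 3, respectively. The windows of Igfbp5 and Igfbp7, which were also higher, and the other Igfbp2 window held no AP-1 match. No window was found for H19. The 2 windows with an AP-1 match are printed with each match in capitals, and a match is a description and no evidence of binding. The windows are chr10:87860861-87861160 for Igf1 and chr1:72825137-72825436 for Igfbp2, both on the plus strand of GRCm38.p6.
Igf1 promoter: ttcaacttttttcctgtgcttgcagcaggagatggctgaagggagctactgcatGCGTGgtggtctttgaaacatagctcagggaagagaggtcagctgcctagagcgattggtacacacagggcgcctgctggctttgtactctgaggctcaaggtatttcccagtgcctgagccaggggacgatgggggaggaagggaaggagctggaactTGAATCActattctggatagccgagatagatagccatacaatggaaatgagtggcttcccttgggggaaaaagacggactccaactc
Igfbp2 promoter, second start: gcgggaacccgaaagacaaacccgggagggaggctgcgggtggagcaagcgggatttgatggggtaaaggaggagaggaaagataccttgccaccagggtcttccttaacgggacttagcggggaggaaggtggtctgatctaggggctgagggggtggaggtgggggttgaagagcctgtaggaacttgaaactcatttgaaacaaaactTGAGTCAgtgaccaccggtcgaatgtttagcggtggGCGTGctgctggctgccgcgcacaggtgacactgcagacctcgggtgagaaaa

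Reads assigned to genes numbered 1522668 to 2826735 per library (median 1935856). Values are counts scaled to library size (CPM, with TMM factors), and levels are compared between libraries and not between genes. All 8 neuronal markers were detected in each of the 11 groups; they mark neural tissue and do not tell cortex from other forebrain. The MCAO day 7 library C stood apart before any comparison of members: its 8 fibroblast markers summed to 5472 CPM against 173 to 534 in the other 4 libraries of the group, its 9 microglial markers to 4337 against 1034 to 1466, and its neuronal markers to 4427 against 6365 to 7451. The MCAO day 3 library A stood at the other end of its group, with a microglial sum of 759 CPM against 1584 to 3105. Of the day 3 and day 7 fold changes named, those that leaving out the respective library moved by more than 1.5 times, or whose call it changed, are given with and without it. Choroid plexus markers summed to 506 CPM in control library A and to at most 56.6 in any other library, and skeletal muscle markers to between 17.1 and 100.4 CPM throughout.

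A gene was called at an adjusted p under 0.01 and a log2 fold change beyond 0.58 in edgeR's quasi-likelihood test. SE is the absolute log2 fold change divided by the square root of that test's F statistic, not an error estimated by the fit. SE values of 1 gene therefore need not combine across comparisons. For H19 SE was 1.47 on day 3 and 1.33 on day 7 against sham, but 4.54 for the change between them. Against sham, no member was called at 3 h, 12 h or 24 h, where 0.110%, 0.411% and 0.0901% of all genes were called. At an unadjusted p under 0.05 the members numbered 0, 2 and 2, beside 1688, 2917 and 1757 of the 19970 genes tested. DESeq2 also called 0 members at each of these times, beside 0.29%, 0.896% and 0.22% of all genes. On day 3, H19, Igfbp2 and Igfbp7 were called, 3 of 10 beside 4.02% of all genes. On day 7, 4 members were called beside 3.50% of all genes, namely H19, Igf1, Igfbp5 and Igfbp7. Every call was toward a higher level after MCAO, and none was lower. The median log2 fold change of the 10 members was 0.75 on day 3 and 1.58 on day 7, beside 0.01 and 0.06 over all genes tested. Without MCAO day 7 library C the day 7 median was 0.98 and 3 members were called, beside 1.42% of all genes. Without MCAO day 3 library A the day 3 median was 0.81 with 3 members called, beside 6.79% of all genes.

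**Figure D1:**
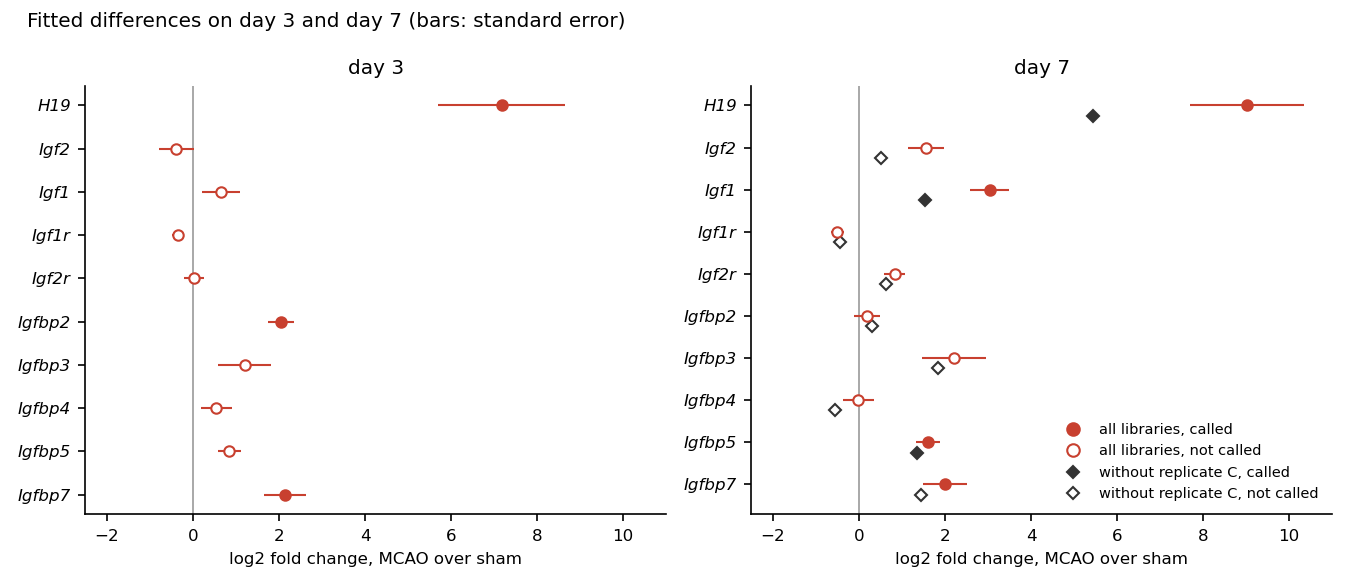
Log2 fold change of MCAO over sham for each member on day 3 and day 7. Bars are SE, derived from the F statistic as stated in the text. Filled red circles were called with all libraries and filled diamonds were called after MCAO day 7 library C was left out. H19 lies farthest right at both times (7.18 and 9.03), and its day 7 value moves to 5.43 without library C.

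H19 was the member with the widest range. In the 24 sham and control libraries it ran from 0 to 4.27 CPM with a median of 0.471. The 4 control libraries held 1.12, 1.69, 1.13 and 1.71 CPM, from 2 or 3 counts each. At 3 h the MCAO libraries A to E held 0, 0.473, 0.420, 0 and 0 CPM, within the range of the 3 h sham libraries (0, 0, 0.896 and 1.64). H19 was therefore at or near its detection limit in uninjured and early injured tissue, where 1 count decides a value.

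At 12 h, H19 stood at 2.23, 3.40, 3.13, 4.71 and 2.38 CPM after MCAO and at 0, 1.04, 0.370 and 0 in sham. All 5 MCAO libraries lay above all 4 sham libraries, an arrangement found in 2.03% of all genes at this time. The pooled counts were 31 and 3, a ratio of rates of 9.23 with an exact 95% interval for counting error of 2.88 to 47.2, and the fitted log2 fold change of 3.00 (SE 1.95) was not called. At 24 h the 4 MCAO libraries held 3.40, 4.21, 2.97 and 4.89 CPM and the sham libraries 0, 0, 4.27 and 2.10, so the groups overlapped and the ratio was 2.33 (1.15 to 5.13).

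On day 3, H19 reached 1.60, 36.2, 24.0, 15.6 and 121 CPM in MCAO libraries A to E. The 4 sham libraries held 0.725 CPM (2 counts) in A and 0 in B, C and D. Every MCAO library lay above every sham library, as for 4.33% of all genes at this time. Library A was far below the other 4 of its group. The pooled ratio was 194 (53.3 to 1604) from 438 and 2 counts, and the fitted log2 fold change was 7.18 (SE 1.47), called. Without MCAO library E it was 6.14 and without sham library A 9.32, both called.

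On day 7 the MCAO libraries held 8.65, 11.7, 1080.4, 29.3 and 26.3 CPM and the sham libraries 0.572, 0.933, 0 and 0. Even the lowest MCAO value, in library A, was above the highest of all 24 sham and control libraries. Against the day 7 sham libraries alone, 5.38% of all genes were arranged in this way. The pooled ratio was 570 (195 to 2767) with library C and 50.4 (16.9 to 247) without it. The fitted log2 fold change of 9.03 (SE 1.33) became 5.43 without library C and 9.94 without sham library B, and was called in these 3 fits. In a fit of only the MCAO and sham libraries of day 7 it was 9.02 and not called. Over group medians, MCAO day 7 (26.3 CPM) and day 3 (24.0) were highest and overlapped in range, followed by MCAO at 24 h (3.80) and 12 h (3.13), which also overlapped, and control (1.41).

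The order of the 5 day 7 libraries by H19 (A, B, E, D, C) was also their order by the fibroblast marker sum, at 173, 192, 436, 534 and 5472 CPM. On day 3, library E was highest for both, with a fibroblast sum of 1334 CPM, but library D had 15.6 CPM of H19 at a fibroblast sum of 79.6, below the day 3 sham range of 83.9 to 154. At 12 h the fibroblast sum was 90.0 to 195 CPM after MCAO and 67.8 to 77.6 in sham. All 8 fibroblast markers, Col1a1 among them, were detected in every day 3 and day 7 MCAO library. Microglial sums were also higher in these groups, at 759, 1584, 3105, 2005 and 2832 CPM in day 3 MCAO libraries A to E against 335 to 427 in sham, and at 1034 to 4337 on day 7 against 464 to 596. At 12 h they overlapped, at 307 to 675 CPM after MCAO and 352 to 550 in sham. Infiltrating myeloid markers summed to 6.41 to 816 CPM after MCAO on day 3, above every sham library of that day. They summed to 14.5 to 1731 CPM after MCAO at 12 h against 0.739 to 3.12 in sham, and to 14.4 to 98.2 on day 7 against 0.456 to 5.15. The part of fibroblast, microglial and myeloid content in the H19 values was not tested, and in bulk tissue more cells of a type cannot be told apart from more RNA per cell, for H19 or any gene below.

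**Figure D2:**
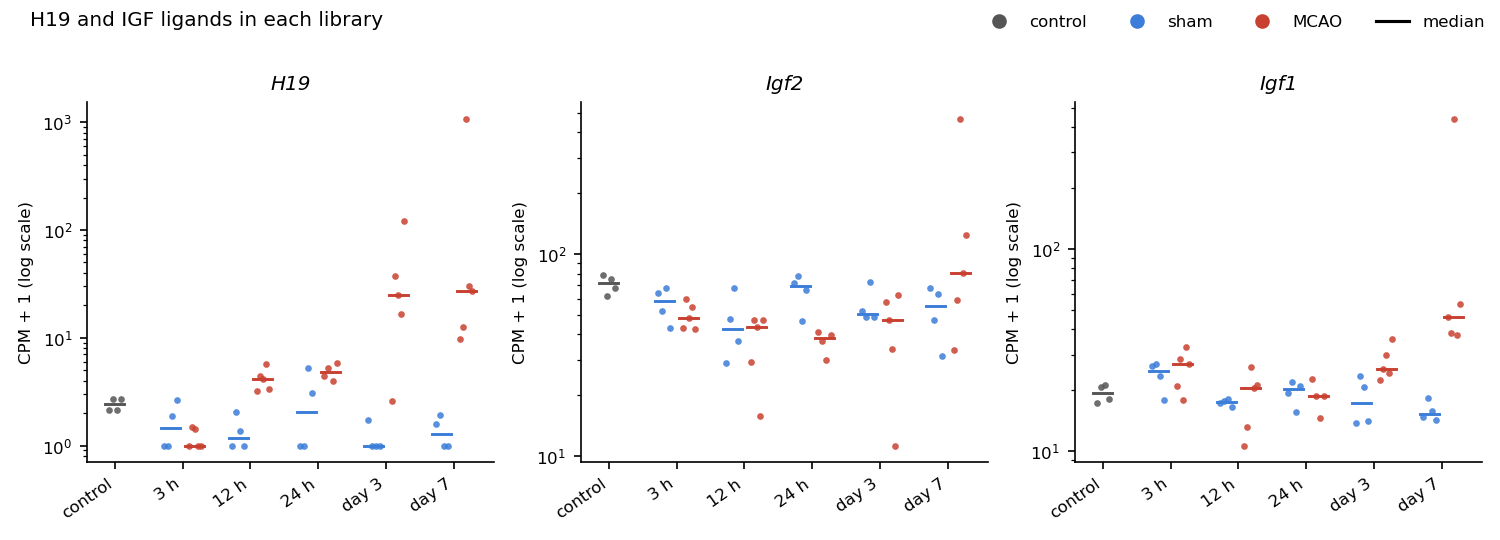
CPM + 1 on a log axis for H19, Igf2 and Igf1 in each of the 48 libraries, by group; lines are group medians. MCAO day 7 library C is the top point in all 3 panels (1080.4, 468 and 440.3 CPM), and for H19 the MCAO points leave the sham points from 12 h on, except at 24 h.

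Group levels of Igf2 and H19, its neighbour on chromosome 7, differed in course, although library C was highest for both on day 7. The 4 control libraries held 77.6, 61.3, 74.5 and 66.8 CPM, and control library A, with its choroid plexus signal, was only slightly above the others. At 24 h the MCAO libraries held 39.9, 36.0, 28.8 and 38.5 CPM and the sham libraries 70.7, 77.1, 45.7 and 65.5. All MCAO libraries were below all sham libraries at 24 h, as for 2.10% of all genes, and the log2 fold change of -0.86 (SE 0.44) was not called. This was the direction opposite to that of H19 at the same time, whose fitted difference was 1.21 (SE 1.53).

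On day 3, Igf2 stood at 56.6, 46.1, 33.0, 10.3 and 61.7 CPM after MCAO and 51.1, 47.6, 71.5 and 47.8 in sham, with a log2 fold change of -0.39 (SE 0.41). Library D, the lowest of all 48, also had the lowest fibroblast sum of its group. On day 7 it stood at 32.3, 58.0, 468, 79.7 and 123 CPM after MCAO and 66.9, 46.2, 62.7 and 30.1 in sham. The groups overlapped, and the log2 fold change was 1.56 (SE 0.42) with library C and 0.51 without it, neither called. It was called when MCAO library A (1.82), B (1.77) or D (1.73) was left out. The H19 to Igf2 count ratio was 0.014 to 0.028 in control, 0.028, 0.784, 0.727, 1.52 and 1.96 in the day 3 MCAO libraries, and 0.268, 0.202, 2.31, 0.367 and 0.214 on day 7; it was at most 0.0933 in any sham library.

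Igf1 was close to its sham level until 24 h. Control held 16.2, 19.7, 20.3 and 17.1 CPM, and all 24 sham and control libraries lay between 12.7 and 25.9. On day 3 the MCAO libraries held 21.4, 24.4, 29.0, 23.4 and 34.8 CPM and the sham libraries 12.7, 22.6, 19.6 and 13.1. MCAO libraries B to E were above all sham libraries, and the log2 fold change of 0.65 (SE 0.44) was not called.

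On day 7, Igf1 was at 45.0, 37.2, 440.3, 36.5 and 52.6 CPM after MCAO and at 13.7, 17.3, 14.7 and 13.2 in sham. All 5 MCAO libraries lay above all 24 sham and control libraries. The same order against the day 7 sham libraries alone was found in 5.38% of all genes. The log2 fold change was 3.04 (SE 0.45) with library C and 1.53 without it, and both were called, whereas a fit of only the 2 groups gave 3.04 and no call. Compared with day 3, the MCAO over sham difference was 2.39 larger on the later day (SE 0.62), or 0.88 larger (SE 0.32) without library C, and neither change was called. Against control, which the 5 MCAO groups share, the log2 fold change on day 7 was 2.73 (SE 0.44) with library C and 1.22 (SE 0.23) without it, both called.

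The ratio of Igf1 to the microglial markers differed between day 3 and day 7. On day 3 the microglial sum was 759 to 3105 CPM after MCAO against 335 to 427 in sham, and Igf1 amounted to 0.933 to 2.81% of it (median 1.23) against 3.03 to 5.29% (median 4.38) in sham. On day 7 the microglial sum was 1034 to 4337 CPM and Igf1 amounted to 4.31, 2.76, 10.2, 3.53 and 3.59% of it, against 2.22 to 3.08% in sham. In library C, Igf1 was high also relative to its high microglial sum. The fibroblast sum of library C (5472 CPM against 173 to 534 in the rest of the group) and its infiltrating myeloid sum (98.2 against 14.4 to 23.0) were likewise the highest. Which cells carried the Igf1 transcripts was not tested.

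Igf1r, the signalling receptor, had its lowest group median in MCAO on day 7 and was called at no time. On day 7 it stood at 72.1, 67.2, 66.0, 93.1 and 94.6 CPM after MCAO and at 109, 108, 107 and 120.0 in sham. The groups did not overlap, as for 5.10% of all genes in this direction, and the log2 fold change was -0.50 (SE 0.15), or -0.44 without library C. The neuronal marker sum was also lower in that comparison, at 4427 to 7451 CPM after MCAO and 7369 to 8236 in sham. On day 3 the Igf1r range was 73.7 to 107 CPM against 90.9 to 132, with a log2 fold change of -0.35 (SE 0.15). At 3 h, both MCAO (127 to 164 CPM) and sham (137 to 147) were above control (97.6 to 115).

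Igf2r, the clearing receptor, stayed between 16.6 and 51.8 CPM in all but the day 7 library C (80.9). On day 7 the MCAO libraries held 49.6, 42.2, 80.9, 51.8 and 35.1 CPM and the sham libraries 27.5, 21.9, 37.1 and 30.1. MCAO libraries A to D were above all sham libraries, and E was within their range. The log2 fold change was 0.83 (SE 0.24) with library C and 0.62 without it, and was not called. Airn, the antisense transcript of this locus, held 276 counts over all libraries against 3584 for Igf2r.

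**Figure D3:**
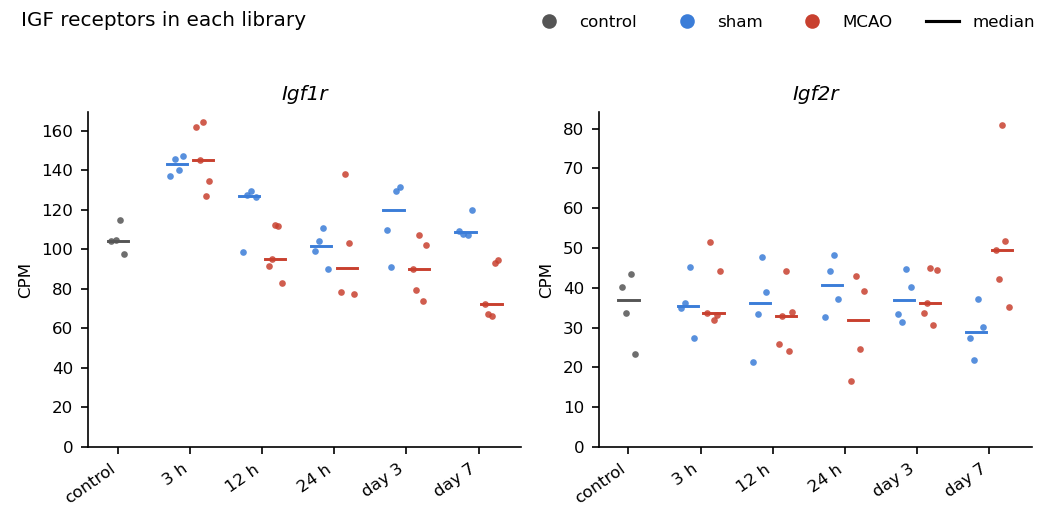
CPM of Igf1r and Igf2r in each library by group, on linear axes from 0; lines are group medians. On day 7 the 5 MCAO points of Igf1r (66.0 to 94.6 CPM) lie below the 4 sham points (107 to 120.0), whereas those of Igf2r reach up to 80.9.

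The binding proteins differed in when they were high. Igfbp2 was highest on day 3, with 29.9, 60.6, 142, 115 and 136 CPM after MCAO and 29.0, 24.9, 28.0 and 10.8 in sham. The groups did not overlap, as for 4.33% of all genes in this direction, although library A was only just above the highest sham library. The log2 fold change was 2.05 (SE 0.31), and 2.28 without library A. By day 7 the MCAO libraries were at 34.6, 37.2, 26.2, 45.6 and 54.5 CPM, overlapping sham (27.1 to 42.0), with a log2 fold change of 0.18 (SE 0.30). The MCAO over sham difference was 2.39 (SE 0.45) larger on day 3 than at 24 h, and its change from day 3 to day 7 was -1.87 (SE 0.42); neither change was called with all libraries, and both were called without MCAO day 3 library A (2.62 and -2.10). Against control Igfbp2 was called on day 3 at 1.34 (SE 0.30), but not without MCAO library E or control library B.

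The day 3 libraries with the most Igfbp2, C and E, also had the highest endothelial marker sums, at 697 and 663 CPM. Libraries A, B and D had 301, 489 and 405 CPM, and the sham libraries 307 to 338. On day 7 the endothelial sum was 290 to 371 CPM after MCAO and 287 to 368 in sham. All 10 endothelial markers were detected in each of these libraries. The match was not particular to endothelial markers. Libraries C and E also had the highest fibroblast (648 and 1334 CPM) and infiltrating myeloid sums (816 and 236) of the day 3 MCAO group. The microglial sums of libraries A to E were 759, 1584, 3105, 2005 and 2832 CPM, in the same order as Igfbp2. The part of these cell types in the Igfbp2 values was not tested.

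Igfbp7, which is abundant in vessels, separated earlier. At 24 h it stood at 68.8, 54.2, 53.8 and 69.1 CPM after MCAO and 19.003, 24.7, 20.7 and 24.1 in sham, with no overlap, as for 3.73% of all genes, and a log2 fold change of 1.47 (SE 0.51) that was not called. The endothelial sums at 24 h overlapped, at 280 to 359 CPM after MCAO and 277 to 348 in sham. The fibroblast sums (124 to 221 CPM against 86.0 to 121), the microglial sums (647 to 848 against 386 to 511) and the infiltrating myeloid sums (39.3 to 96.6 against 4.72 to 6.95) were higher in every MCAO library than in every sham library, and their part in the Igfbp7 values was not tested. On day 3 the MCAO libraries held 12.3, 61.0, 197, 65.4 and 153 CPM and the sham libraries 22.5, 16.6, 22.4 and 27.2. Library A lay below every sham library and the other 4 above, and the log2 fold change of 2.14 (SE 0.48) was called. Without library A it was 2.42, also called. The call was lost without MCAO library C (1.72) or E (1.92) or sham library A (2.14), B (2.03) or C (2.14), and in a fit of only the 2 groups (2.12).

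On day 7, Igfbp7 was at 36.3, 38.7, 137, 52.3 and 31.9 CPM after MCAO, above all 24 sham and control libraries. The day 7 sham libraries held 18.3, 8.40, 27.8 and 5.47 CPM, and 5.38% of all genes did not overlap with them in this direction. The log2 fold change was 2.00 (SE 0.51), called. The call was lost without MCAO library C (1.44) or D (2.05) or sham library A (2.12), B (1.81) or D (1.70), and in a fit of only the 2 groups (2.01). At its 3′ end the gene shares 85 bases with Polr2b, which lies on the other strand and held 6900 counts in all against 3709 for Igfbp7; the strand setting of the counting is not given in the sources used here.

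**Figure D4:**
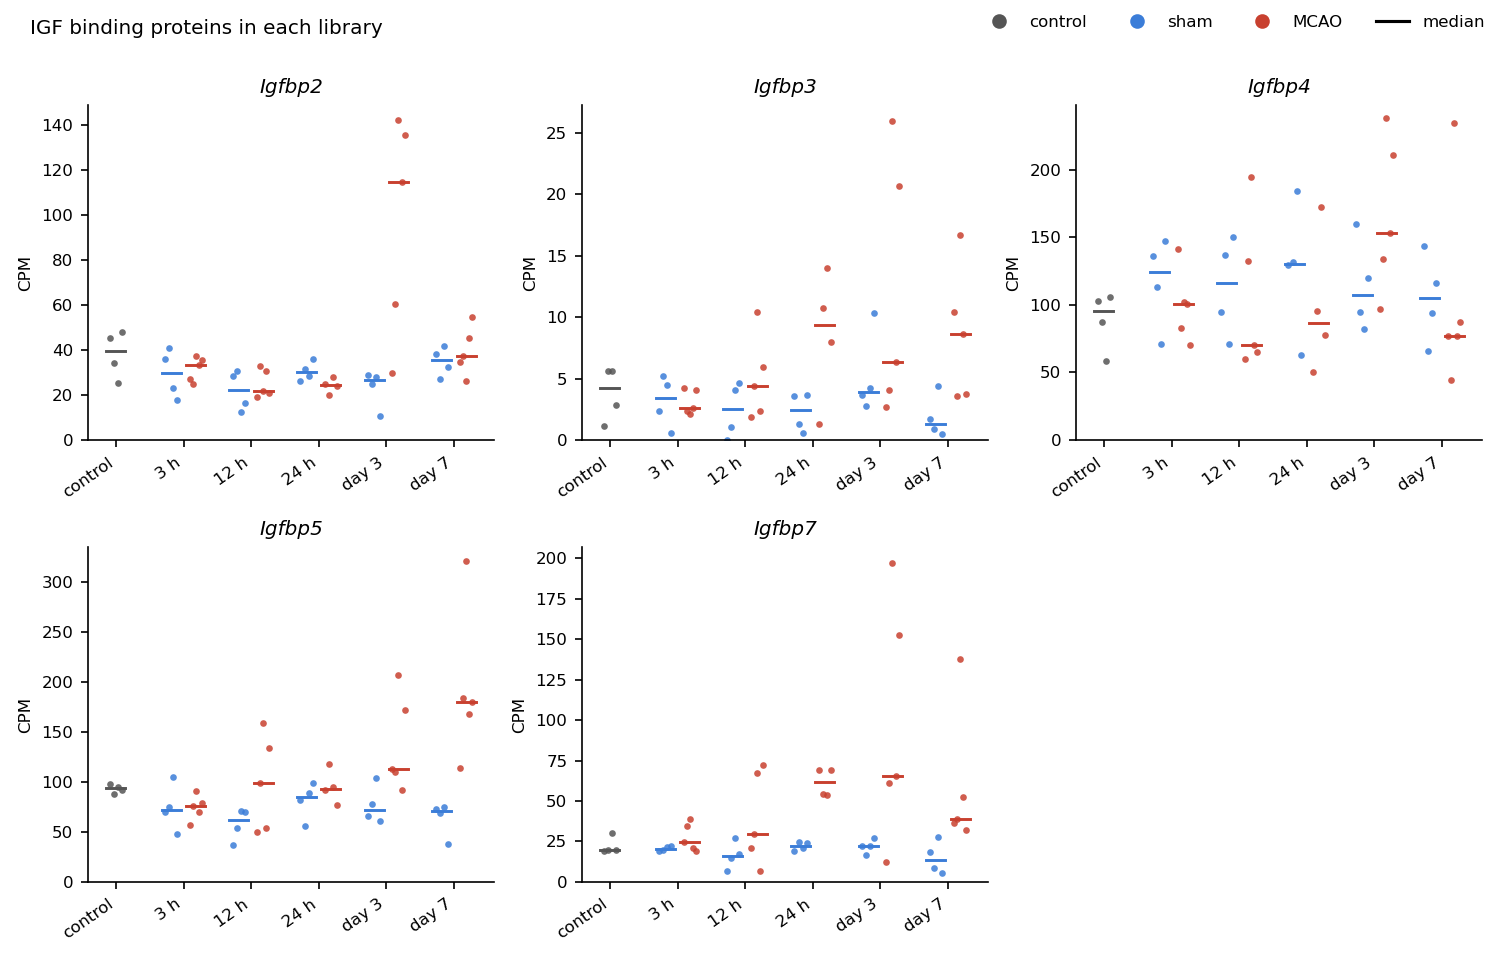
CPM of the 5 binding proteins in each library by group, on linear axes from 0; lines are group medians. Igfbp2 is highest in the day 3 MCAO group (29.9 to 142 CPM), Igfbp7 lies above sham from 24 h on except in day 3 library A, and Igfbp5 is highest on day 7 (114 to 321).

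Igfbp5, a binding protein known for its affinity to extracellular matrix, was highest on day 7, with 114, 185, 321, 168 and 180 CPM after MCAO. The sham libraries held 73.2, 69.1, 75.2 and 37.9 CPM, and the control libraries 98.2, 88.3, 95.4 and 91.9. All 5 MCAO libraries were above all 24 sham and control libraries, and 4 members were arranged in this way against sham on day 7, beside 5.38% of all genes. The log2 fold change was 1.60 (SE 0.28), and 1.34 without library C, both called. On day 3 it was 0.84 (SE 0.27), not called, with 113, 110.3, 207, 92.3 and 172 CPM after MCAO and 66.4, 78.5, 104 and 61.4 in sham.

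Igfbp3 and Igfbp4 were not called at any time. Igfbp3 was sparse, at 0 to 10.3 CPM in sham and control, and the day 7 MCAO libraries held 10.4, 3.56, 16.7, 8.64 and 3.76 CPM against 1.72, 0.933, 4.36 and 0.456 in sham, a log2 fold change of 2.21 (SE 0.73), or 1.84 without library C. Its highest values were in day 3 libraries C (26.0) and E (20.7), the libraries that also led in Igfbp2, Igfbp4, Igfbp5 and Igfbp7. Igfbp4 held 96.6, 134, 238, 153 and 211 CPM on day 3 after MCAO and 160, 94.6, 82.2 and 120 in sham, a log2 fold change of 0.54 (SE 0.36). On day 7 it held 77.3, 44.8, 235, 77.3 and 87.1 CPM against 144, 66.3, 94.3 and 116; library C alone moved its log2 fold change from -0.55 to -0.01.

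**Figure D5:**
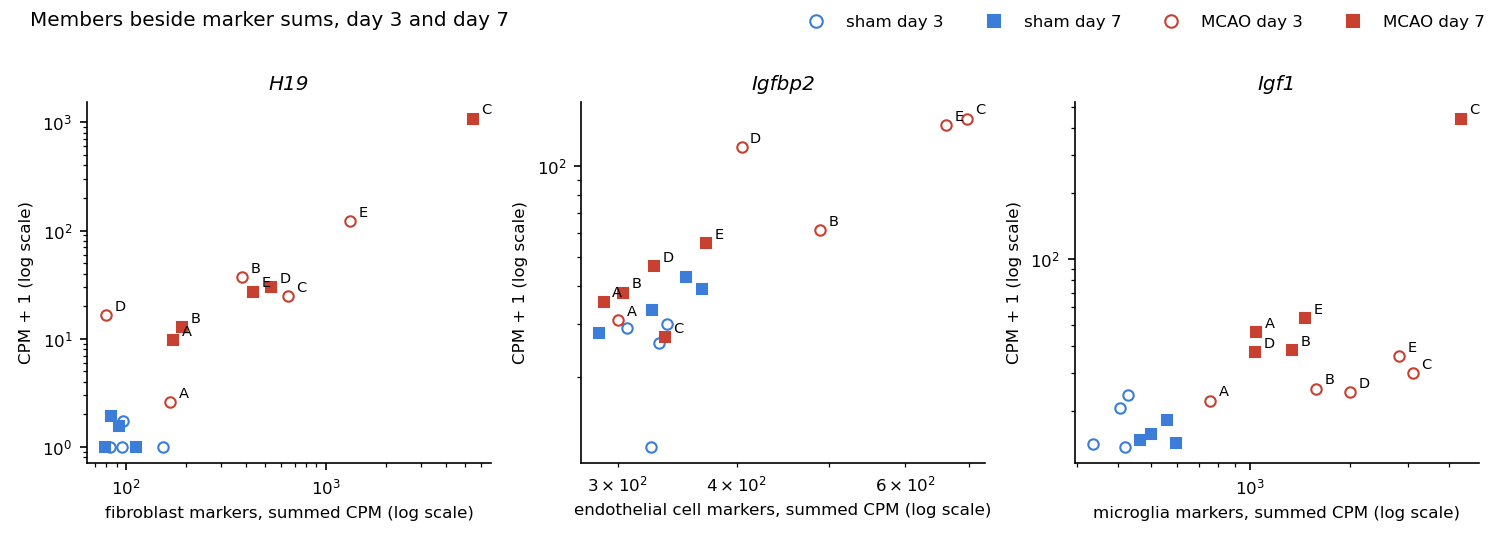
H19, Igfbp2 and Igf1 (CPM + 1, log axes) beside the summed CPM of fibroblast, endothelial and microglial markers in the day 3 and day 7 libraries; letters name MCAO libraries. Library C on day 7 is extreme in both the H19 (1080.4 CPM) and the fibroblast value (5472 CPM), and in both the Igf1 (440.3) and the microglial value (4337).

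Surgery alone, compared as sham with the shared control libraries, gave no called member at any time, beside 0% of all genes at 3 h, day 3 and day 7, 0.0351% at 12 h and 0.0100% at 24 h. At an unadjusted p under 0.05, edgeR listed 1, 2, 0, 1 and 0 members at the 5 times. Of the 19970 genes tested it listed 736, 1084, 860, 731 and 1604. DESeq2 called 0 members, beside 0, 0.0551, 0.0701, 0.00501 and 0% of all genes. The members listed were Igf1r at 3 h (log2 fold change 0.44, SE 0.15), Igfbp2 at 12 h (-0.82, SE 0.33) and day 3 (-0.71, SE 0.32), and Igfbp5 at 12 h (-0.67, SE 0.29). MCAO against the same control called H19 (4.77, SE 1.17), Igfbp2 and Igfbp7 (2.15, SE 0.49) on day 3, beside 3.10% of all genes. The day 3 calls depended on single libraries, with 0 to 3 members called over 9 fits that each left out 1. On day 7 MCAO against control called H19 (7.29, SE 1.14) and Igf1, beside 1.50% of all genes. Without MCAO day 7 library C, H19 against control was 3.70 (SE 0.76), also called. At 3 h, 12 h and 24 h MCAO against control called no member, beside 0.130%, 0.856% and 0.280% of all genes. There edgeR listed 1, 1 and 3 members at an unadjusted p under 0.05, beside 1827, 3205 and 2199 of all genes. DESeq2 called 0 members, beside 0.401%, 1.42% and 0.601% of all genes. The change of the MCAO over sham difference between neighbouring times gave no called member either. Of all genes, 0.0100% were called up to day 3 and 0% from day 3 to day 7. For these changes edgeR listed 0, 0, 2 and 4 members at an unadjusted p under 0.05, beside 1421, 1015, 1762 and 3231 of all genes. DESeq2 called Igfbp2 in each of the last 2, beside 0.025% and 0.285% of all genes. Igfbp5, at 1.05 (SE 0.28), and Igfbp7, at 1.43 (SE 0.49; 0.86 without library C), were called on day 7 against sham and not against control, where their levels were higher than in day 7 sham in the median.

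Of the other genes of the pathway, 63 were listed, among them insulin and its receptors, IGF proteases, adaptors, PI3K, AKT and mTOR components and imprinted genes, and 57 were tested. Against sham, 3 were called on day 3 (5.26%, beside 4.02% of all genes) and 1 on day 7 (1.75%, beside 3.50%), and none earlier. DESeq2 called 8 genes over the 5 times where edgeR called 4. MCAO against control called 0 of the 57 on day 3 and 0 on day 7, beside 3.10% and 1.50% of all genes. Shc1, an adaptor that links receptor tyrosine kinases to RAS signalling, was 1 of 7 receptor adaptors. It was higher than sham on day 3, with 6.41 to 28.6 CPM after MCAO and 1.85 to 7.62 in sham (log2 fold change 1.59, SE 0.40, edgeR adjusted p = 0.00591). The control libraries held 5.64 to 7.42 CPM. Igf2bp2, an RNA-binding protein that binds Igf2 mRNA, was 1 of 2 tested members of its family. On day 3 it held 1.60 to 10.6 CPM after MCAO and 0.467 to 1.38 in sham (2.83, SE 0.74, edgeR adjusted p = 0.0093). The control libraries held 1.67 to 2.85 CPM, above that sham range. At 3 h Igf2bp2 held 3.19 to 8.03 CPM after MCAO and 0 to 0.791 in sham. Its log2 fold change there was larger, at 3.50 (SE 0.88), and not called.

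Zdbf2, an imprinted gene, was lower than sham on day 3, with 8.99 to 28.3 CPM after MCAO and 27.6 to 45.3 in sham (log2 fold change -1.04, SE 0.26, edgeR adjusted p = 0.00612). The control libraries held 20.1 to 36.7 CPM, overlapping the MCAO range. Zdbf2 was the only 1 of 15 other imprinted genes called. The median log2 fold change of those 15 was -0.21 on day 3 and 0.20 on day 7. Foxo3, a transcription factor restrained by AKT, was lower than sham on day 7, with 47.0 to 57.5 CPM after MCAO and 82.1 to 93.1 in sham (-0.69, SE 0.17, edgeR adjusted p = 0.00579), as 1 of 20 PI3K, AKT and mTOR genes. The control libraries held 62.1 to 90.9 CPM of Foxo3. None of the 6 IGF proteases and inhibitors, the 3 tested other binding proteins or the 2 tested insulin receptor genes was called on day 3 or day 7. Of 9 fits that each left out 1 library, 4 kept the call of Shc1, 1 that of Igf2bp2, 3 that of Zdbf2 and 2 that of Foxo3, and every log2 fold change kept its direction. The Shc1 call was lost without MCAO library C (1.52) or E (1.30) or sham library B (1.32), C (1.57) or D (1.73), and that of Igf2bp2 was kept only without MCAO library A (3.07), with 2.59 to 3.11 and no call without any other library of its comparison. Zdbf2 was called without MCAO library A (-1.22) or D (-1.12) or sham library D (-1.18), and not without any other (-1.04 to -0.87). Foxo3 was called without MCAO library B (-0.71) or E (-0.70), and not without any other (-0.71 to -0.64).

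Across the 11 group medians of log2(CPM + 1), among 11739 genes with a mean of at least 5 CPM, the genes most like H19 in Pearson correlation were H2-K1 (0.98), Lyz2 (0.98), Ctss (0.98), Lgals3bp (0.97) and Ifi27 (0.97). For Igfbp5 they were Col1a1 (0.95), Kank2 (0.92), Col1a2 (0.91), Ppfibp1 (0.91) and H19 itself (0.91). Igf1 was most like Mapk3 (0.90), Acss1 (0.89), Atg16l2 (0.88), Nfatc1 (0.88) and P4ha3 (0.87), Igf2 most like Ltbp4 (0.89), Fsd1l (0.87), Cryl1 (0.86), Cat (0.85) and Celsr2 (0.84), and Igfbp3 most like Fam117a (0.93), Kctd10 (0.92), Vma21 (0.92), Dpysl3 (0.91) and Nr2f2 (0.91). Among members, H19 had 0.19 with Igf2, 0.65 with Igf1 and -0.85 with Igf1r. These are descriptions over 11 points that share libraries, depth and, on days 3 and 7, cell makeup.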

How the data were processed

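Whole-number counts of reads per gene were deposited, one file per library. Per the labels and the study's methods, the authors trimmed QuantSeq 3′ FWD reads (TrimmomaticSE), removed ribosomal reads (SortMeRNA), aligned with STAR 2.5.2b to GRCm38 with ERCC spike-ins, and counted with htseq-count in union mode on a Gencode annotation; the strand setting is not given in the sources used here. A deposited variance-stabilized matrix was not used. 46488 of 46983 gene identifiers had a symbol in a later Gencode annotation of the same build. Rows naming no gene (unassigned, ambiguous and multiply mapped reads) were left out; they held a median of 57.2% of all counts in a library.

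After genes at or under 10 counts over all libraries were dropped, 19970 entered edgeR 4.0.16 (R 4.3.3), with TMM factors and all 11 groups in 1 quasi-likelihood fit, for 19 comparisons: MCAO against sham at each time, MCAO and sham against control, and the change of MCAO over sham between neighbouring times. P-values were adjusted by Benjamini-Hochberg over all genes, and the thresholds, 0.01 and a log2 fold change of 0.58, were those of the study. CPM came from edgeR, and SE is the absolute log2 fold change over the square root of the quasi-likelihood F statistic. The biological coefficient of variation was 24.9%. ERCC reads were 3.71 to 5.97% of counts, and no libraries held identical values. The study counts its bulk replicates as mice; the labels name no animal for a library. Intervals on pooled counts cover counting error only.

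The members and lists were chosen with earlier results of these data known. Genes named beside the 10 members were every called gene of the IGF axis lists, and of the imprinted and PI3K, AKT and mTOR lists the 3 largest changes among called genes; for likeness, the 5 genes with the highest correlation. Marker lists were given as summed CPM. Alternatives were DESeq2 size factors, ERCC scaling, no count filter, the letter as a block, DESeq2 1.42.0, fits of only the groups compared, and each library left out. The test was tried on simulated counts.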

Additional observations from a re-analysis of the deposited data

Results flagged for a closer look

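Within the 110 groups of 4 or 5 values (10 members in 11 groups), 12 held a library set apart from the rest by Dixon's criterion, where chance alone sets apart about 1 in 20. The MCAO day 7 library C was the highest of its group and set apart for 5 members. It held 1080.4 CPM of H19 against 8.65 to 29.3 in the other 4, 467.61 of Igf2 against 32.3 to 123, 440.25 of Igf1 against 36.5 to 52.6, 235.0 of Igfbp4 against 44.8 to 87.1, and 137.43 of Igfbp7 against 31.9 to 52.3. Its fibroblast and microglial marker sums were also the highest of the group, and their part in these values was not tested.

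H19 in MCAO day 3 library E was 121.19 CPM against 1.60 to 36.2, in the library with the highest fibroblast sum of its group. H19 in sham day 3 library A was 0.7253 CPM from 2 counts, with 0 in the other 3 libraries. Igf2 in sham day 3 library C was 71.474 CPM against 47.6 to 51.1. Igf1r was low in sham 12 h library A at 98.865 CPM against 127 to 129, and high in sham day 7 library D at 119.98 against 107 to 109. Igfbp5 in the same sham day 7 library D was 37.865 CPM against 69.1 to 75.2. Igfbp7 in control library C was 29.916 CPM against 18.97 to 19.7.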

How the results depend on the processing

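DESeq2 size factors changed no count or call of a member. ERCC scaling shifted the median of all genes by -0.23 (log2) on day 3 and 0.09 on day 7 against sham, to -0.22 and 0.14, lost the Igfbp7 calls at both times (1.81 and 1.94), gave 1 member called on day 3 against control (349 genes higher and 345 lower, beside 561 and 58) and 1 pathway gene (4 with TMM). Without the count filter, Igf2 was called on day 7 against sham (1.54), beside 3.76% of all genes. That fit called 1 member from 24 h to day 3, beside 0.0226%, and 2 from day 3 to day 7, beside 0.139%. With the filter these comparisons called 0 members each. Without it, 8 pathway genes were called. DESeq2 called 1 member in each of these comparisons, beside 0.025% and 0.285% of all genes, and 8 pathway genes. On day 7 against sham it also called Igf2 (1.58) and Igf2r (0.84), beside 5.49%. Fits of only the groups compared called 1 member at 24 h (Igfbp7) and 1 on day 7 (Igfbp5) against sham. Of all genes, 0.319% and 1.84% were called there. Igfbp7 was lost on day 3 (2.12), where 2.02% of all genes were called. H19 (9.02), Igf1 (3.04) and Igfbp7 (2.01) were lost on day 7. The lost members had nearly the same fold changes as with all groups. On day 7 the fit called 302 genes in all, against 698 with all groups. Against control these fits called 2 members at 24 h, 0 on day 3 and 0 on day 7. Of all genes, 0.787%, 1.35% and 1.01% were called there. They called 2 pathway genes. Of the 60 pairs of same-letter libraries, 18 deviated together with a correlation over 0.1 (-0.26 to 0.29), and in 0 of 15 comparisons did all. Pairs of unlike letters were not compared, so this cannot decide whether a letter marks a shared animal or day. With the letter as a replicate block, H19 on day 7 was 7.91 and 1 pathway gene was called, and no member's call against sham changed. Leaving out each library gave 2 to 3 members called on day 3 and 3 to 5 on day 7 against sham. The share of all genes called ran from 2.22 to 6.79% on day 3 and from 1.21 to 3.39% on day 7. Against control, 0 to 3 members were called on day 3 and 2 to 3 on day 7. From 24 h to day 3 and from day 3 to day 7, 0 to 1 members were called each. Pathway genes called numbered 1 to 7. Against control on day 3, 0 members were called without MCAO library E or control library B, and 1 without MCAO library C or control library A, C or D. No called direction was reversed. The causes were not tested. At these depths H19 in sham rests on 0 to 7 counts per library, so its fold changes are imprecise.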
